A study of Mus musculus with 67 samples.

Results

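Retinal pigment epithelium (RPE) collected at 1d was compared with RPE collected at 6h, gene by gene, in the 7 RNA libraries that the labels put in these groups: 3 at 6h and 4 at 1d. They are 7 of the 16 RPE libraries, of the 33 RNA libraries and of the 67 samples of the series. All mice were abca4-/- rdh8-/- on a C57BL/6J background, so the controls carry both deletions too, and no wild-type samples were used here. Abca4 and Rdh8 encode a transporter and a dehydrogenase that clear all-trans-retinal from photoreceptor discs, and mice without both are sensitive to light. The other RPE groups are NB, a label that is not spelled out (5 libraries), and 3d (4 libraries). The labels give neither the event from which the hours and days are counted nor the age of the animals. Each library pools both eyes of 1 mouse. RPE cells were shaken loose from the opened eyecup in an RNA-stabilising solution and the choroid was then lifted out, so cells of neighbouring tissue that came loose with them are counted as well.

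The RPE is the pigmented monolayer behind the photoreceptors. It regenerates 11-cis-retinal through the retinoid cycle, engulfs and digests the shed tips of outer segments in its lysosomes, and secretes complement regulators, growth factors and protease inhibitors. Its folding capacity in the endoplasmic reticulum is guarded by the unfolded protein response, in which chaperone genes are switched on when unfolded proteins accumulate. Cytokines that signal through the receptor subunit gp130 and the factor STAT3 induce acute phase genes and their own inhibitor Socs3 in many cell types, glia and epithelia included.

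Values are CPM, the read count of a gene as the authors scaled it to the size of its library. Below, the values of a gene at 6h are given in the order of libraries 6h 1 to 6h 3 and those at 1d in the order of 1d 1 to 1d 4. A log2 change is the mean log2(CPM + 0.5) at 1d minus that at 6h, with its standard error (SE), and a gene is said to have risen or fallen where its adjusted p from limma, over the 16712 genes tested, was under 0.05. The 3 libraries at 6h held 25691816 to 26822075 reads and the 4 at 1d held 11457222 to 14125620. Depth set and time therefore cannot be told apart within these 7 libraries. NB is the 1 RPE group with libraries of both sets: NB A1 (23132398 reads) belongs to the deeper set and the 4 libraries NB B to the shallower set of 12 libraries, which reaches 14400300 reads. Where NB A1 differs from NB B, the difference is between mice of 1 label and is given beside the results below. Correlations between libraries over genes were 0.984 to 0.986 among the 6h libraries, 0.960 to 0.984 among the 1d libraries and 0.945 to 0.979 between the groups.

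The label of the tissue was checked on markers. The summed level of 14 RPE cell markers was 10874 to 15447 CPM at 6h, 9327 to 14164 at 1d and 17279 to 29556 in the NB libraries, and of these Best1 was near the floor (1.50 to 2.86 CPM in the 7 libraries). Markers of other tissues were present in all 7. A list of 16 genes of surface epithelium, led by the keratin Krt5, summed to 27808 to 44055 CPM at 6h and 34104 to 68159 at 1d. In each of the 7 libraries this sum was above that of the 14 RPE cell markers. The 15 rod genes summed to 6128 to 16922 CPM at 6h and 3673 to 9863 at 1d. Library 1d 4 had the highest surface epithelium sum and the lowest rod sum of the 7, and 6h 3 the reverse. The sum of 11 lens genes varied widely, at 3607, 3281 and 13566 CPM at 6h and at 2586, 10515, 888 and 4339 at 1d. Transcripts of Abca4 were at 180.3, 187 and 228 CPM at 6h and at 219, 228, 170.2 and 153 at 1d. Those of Rdh8 were at 7.04, 3.35 and 9.10 and at 4.18, 5.37, 5.09 and 3.57. Counts over a whole gene do not check a deletion of part of it. Neither gene passed the test (limma adjusted p = 0.855 and 0.432).

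Between 6h and 1d, 567 of 16712 genes (3.39%) passed the test: 295 rose (1.77%) and 272 fell (1.63%). The falls were larger: 121 of them and 50 of the rises were at least 2-fold. The median log2 change over all genes was -0.03. An unadjusted p under 0.05 was reached by 3973 genes (23.8%). The 1d libraries lay wholly above the 6h libraries for 2023 genes (12.1%) and wholly below for 1906 (11.4%), and 292 of the risen and 266 of the fallen genes were among them. A pair of count models on the recovered reads called 576 genes (edgeR, 3.45%) and 1652 genes (DESeq2, 9.89%). With plain library totals in place of the authors' scaling, 111 rose and 188 fell, so that 37.1% of the calls were rises instead of 52.0%. Leaving out 1 library cut the rises and falls to 44 and 22 (without 6h 1), 85 and 99 (without 6h 2), 39 and 7 (without 6h 3), 92 and 84 (without 1d 2) and 76 and 45 (without 1d 4). Without 1d 3 both counts went up, to 429 and 295, and without 1d 1 there were 221 rises and 397 falls. In all 7 such fits 37 genes rose and 6 fell.

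The calls ran along the difference between the NB libraries of the 2 depth sets. Of the 272 fallen genes, 267 were higher in NB A1 than in the mean of NB B, with a median log2 difference of 0.58, whereas 8590 of all 16712 genes were, with a median of 0.02. NB A1 lay above all 4 NB B libraries for 242 of them (89.0%), against 33.3% of all genes. Of the 295 risen genes, 247 were lower in NB A1 than in NB B, with a median difference of -0.30. NB A1 lay below all NB B libraries for 203 (68.8%), against 31.7% of all genes. With the depth set as a covariate, which rests on NB A1 against NB B, 272 of the risen and 240 of the fallen genes kept their sign, the median change of the risen genes went from 0.58 to 0.27 and that of the fallen from -0.95 to -0.32, and the median SE went from 0.16 to 0.24. In that limma fit 4 genes passed, all rises: Chil1, Serpina3n, Npl and Spred3; at an unadjusted p under 0.05 there were 407 rises and 167 falls. With the 6h reads thinned to the shallower depth, 291 genes rose and 270 fell. For 81 of the risen genes every 1d library lay above all 12 other RPE libraries, deeper and shallower, and for 97 of the fallen genes every 1d library lay below all 12; over all genes tested these counts were 183 and 336.

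**Figure D1:**
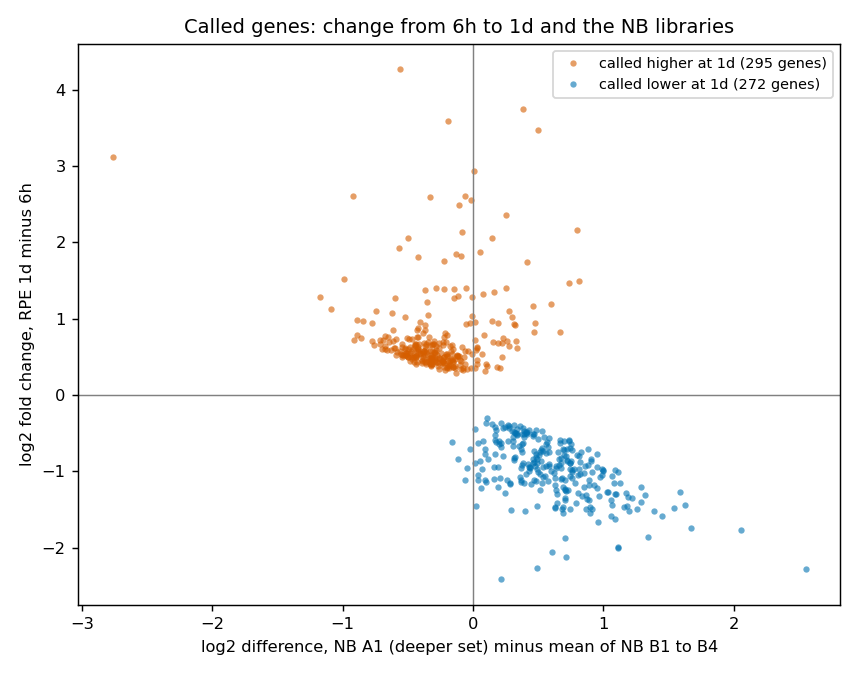
Log2 change from 6h to 1d (vertical axis) against the log2 difference of NB A1 from the mean of the 4 NB B libraries (horizontal axis) for the 567 genes that passed the test, 1 point a gene. Most of the 272 fallen genes lie to the right of 0 (267) and most of the 295 risen genes to the left (247).

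The 12 largest rises named here were taken among called genes with groups that do not overlap and a mean of 5 CPM or more at 1d. Gm10800 did not meet this rule, though its log2 change of 3.12 (limma adjusted p = 0.00560) was larger than that of Mmp3 (2.93). Its log2 difference of NB A1 from NB B was -2.76. Of the 12 genes, 10 encode secreted proteins, among them protease inhibitors, proteases, a lectin and acute phase proteins. Prph and Npl encode intracellular ones. Each of the 12 rose in all fits that left out 1 library, in edgeR and in DESeq2, and 3 of them (Serpina3n, Chil1, Npl) also with the depth set as a covariate. For 8 of the 12, every 1d library was above all other RPE libraries. The exceptions are Serpine3, Cfi, Lalba and A2m, whose 3d libraries overlapped the 1d range, those of A2m only at the highest (1175 CPM).

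Serpine3 (ENSMUSG00000091155, chromosome 14, 62663298 to 62692243 on GRCm38.p6), a member of the serpin family of protease inhibitors, was at 7.73, 2.53 and 2.08 CPM at 6h and at 84.0, 93.1, 48.2 and 90.8 at 1d. The groups do not overlap, as the rule required, and 1d 3 was the lowest of its group. The log2 change was 4.27 ± 0.36 (SE, limma adjusted p = 1.87e-05), NB A1 was at 2.38, NB B at 3.13 to 4.58, and the 3d libraries at 72.7 to 159.8 CPM. Serpina3n (ENSMUSG00000021091, chromosome 12, 104406646 to 104414334), an acute phase serpin made by reactive glia and liver, was the most abundant of the 12: 280.4, 382 and 333 CPM at 6h against 6163, 3679, 2783 and 6138 at 1d. Its log2 change was 3.75 ± 0.29 (SE, limma adjusted p = 1.2e-05), a 14.1-fold ratio of the group means, and its 1d libraries lay above NB (224 to 382) and 3d (1364 to 2678). Serpina3n has close paralogs in its gene cluster, and how reads common to them were counted is not given in the sources used here. A2m, the broad protease inhibitor alpha-2-macroglobulin, rose from 237, 319.6 and 320.1 CPM to 1786, 1514, 986 and 1815 (log2 change 2.36 ± 0.24 SE, limma adjusted p = 0.000169), with 3d libraries at 677 to 1175. All 3 inhibitors were higher in every 1d library than in any 6h or NB library.

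Chil1, a secreted chitinase-like lectin, was at 86.4, 106 and 89.9 CPM at 6h and at 1462, 964, 678 and 1254 at 1d. No 1d library came near the 6h range, and the 3d libraries lay between them at 296 to 602. The log2 change was 3.48 ± 0.28 (SE, limma adjusted p = 1.2e-05) and 3.98 with the depth set as a covariate (limma adjusted p = 0.00896). Npl, which splits sialic acid, rose from 6.72, 8.51 and 11.6 to 52.5, 31.2, 34.7 and 48.3 CPM (log2 change 2.16 ± 0.26 SE, limma adjusted p = 0.000617). With the covariate its change was 2.96 (limma adjusted p = 0.0130), and the 3d libraries were back at 10.6 to 15.7. Spred3, an inhibitor of Ras signalling that was named after its values were seen, was at 6.32, 8.4 and 7.50 and then at 31.5, 18.6, 15.7 and 24.1 CPM (log2 change 1.50 ± 0.24 SE, limma adjusted p = 0.00560; 2.31 with the covariate, adjusted p = 0.0494). NB A1 was above NB B for Npl and Spred3 (10.4 against 4.95 to 7.69, and 11 against 5.75 to 6.6), the direction opposite to their change.

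Genes of the extracellular proteases and their inhibitors were among the 12 as well. Mmp3, stromelysin-1, was at 0.361, 0.781 and 1.23 CPM at 6h and at 19.4, 4.82, 4.01 and 16.1 at 1d, with 3d libraries at 1.03 to 1.62. Timp1, an inhibitor of metalloproteinases, rose from 1.91, 3.87 and 3.94 to 28.9, 16.6, 14.4 and 26.1 CPM (log2 change 2.55 ± 0.32 SE, limma adjusted p = 0.000693). For both, libraries 1d 1 and 1d 4 were the high pair of the 1d group. Prss56, a secreted serine protease of Müller glia, was at 0.903, 0.0744 and 0.186 CPM at 6h and at 26.2, 11, 5.40 and 4.76 at 1d, and it was no higher than 0.23 in any NB or 3d library. It rose by 3.59 ± 0.44 on the log2 scale (limma adjusted p = 0.000693), and in retina, where Müller glia lie, its log2 change was 5.30. Over the whole list of 34 matrix and mesenchymal genes, 2 rose (Mmp3, Timp1) and 1 fell, against 1.77% and 1.63% of all genes, with a median change of -0.05. The 1 that fell, Ccn2, a matricellular growth factor, went from 56.0, 56.7 and 54.9 to 21.6, 29.9, 38.0 and 27.1 CPM (log2 change -0.96, limma adjusted p = 0.0300), a call lost without 6h 1, 6h 2, 6h 3, 1d 2 or 1d 4 (adjusted p up to 0.124).

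Lalba, the milk protein alpha-lactalbumin, was at 4.01, 2.75 and 2.75 CPM at 6h and at 22.3, 17.5, 16.1 and 24.6 at 1d. The NB libraries held 1.09 to 1.84 CPM and the 3d libraries 11.2 to 23.9, so 6h lay above NB and below 1d without overlap. Prph, an intermediate filament protein of neurons, rose from 0.433, 0.372 and 1.00 to 7.49, 4.64, 7.64 and 4.6 CPM (log2 change 2.59 ± 0.28 SE, limma adjusted p = 0.000201) and was at 0.434 to 1.26 at 3d.

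**Figure D2:**
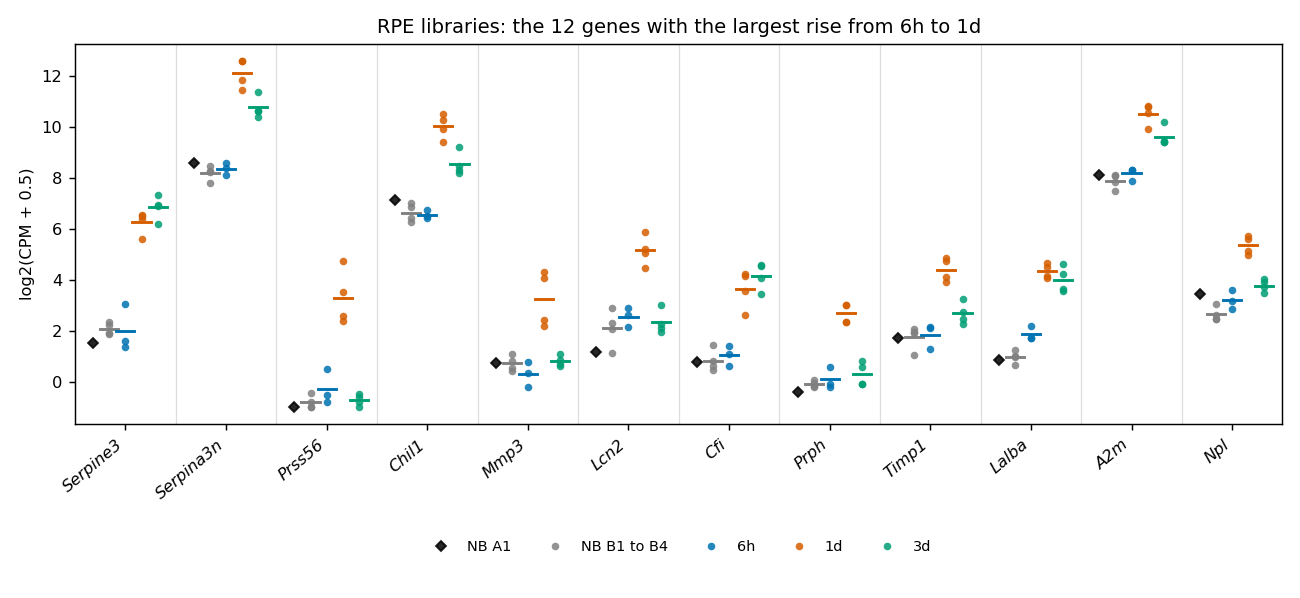
Levels of the 12 genes with the largest rises under the rule for named genes as log2(CPM + 0.5), 1 point a library, in NB A1 (diamond), NB B, 6h, 1d and 3d of RPE. For every gene the 4 libraries at 1d lie above the 3 at 6h, which the rule required. For Serpine3, Cfi and Lalba the 3d libraries stay near the 1d level. For A2m only the highest 3d library (1175 CPM) reaches the 1d range (986 to 1815).

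In the list of gp130 cytokines, receptors and STAT3 targets, 4 of 14 genes tested rose, against 1.77% of all genes, and none fell, with a median change of 0.46 (all genes -0.03). Serpina3n is described above. Lcn2, lipocalin-2, a carrier of iron-binding siderophores, was at 6.90, 5.65 and 3.90 CPM at 6h and at 58.6, 33.1, 21.8 and 36.2 at 1d, with 3d libraries at 3.39 to 7.56. Its log2 change was 2.61 ± 0.41 (SE, limma adjusted p = 0.00494). Osmr, the receptor chain for oncostatin M, was at 246, 294 and 292 CPM and then at 726, 526, 410.1 and 798 (log2 change 1.1 ± 0.21 SE, limma adjusted p = 0.0138). NB libraries held 93.7 to 122 CPM of Osmr, so that it was already above NB at 6h and highest at 1d. Socs3, the feedback inhibitor of the pathway, had the same order: 4.84 to 10.1 in NB, 16.3, 23.3 and 20.8 at 6h, 48.3, 37.0, 34.9 and 36.2 at 1d, and 8.11 to 13.9 at 3d. Its log2 change was 0.94 ± 0.24 (SE, limma adjusted p = 0.0442). The Osmr call was lost without 6h 1 (adjusted p = 0.0805) or 6h 3 (0.0700), and the Socs3 call in every fit that left out a library except that without 1d 3 (adjusted p up to 0.165). Stat3 (log2 change 0.34, adjusted p = 0.117), Bcl3 (1.17, 0.0664), Cebpd (0.58, 0.184), the shared receptor Il6st (0.11, 0.660) and the cytokine Lif (-0.40, 0.440) did not pass in limma. With the depth set as a covariate the median of the list was -0.05 and Serpina3n alone passed.

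Motifs were searched on both strands of the RefSeq promoter windows (GRCm38.p6, 250 bases before to 50 after a start). The STAT site TTCNNNGAA was found in 6.84% of the 14906 windows of genes tested and in 4.76% of the 42 windows of genes that rose at least 2-fold. In the latter, the NF-kappaB site GGANTTTCC was found in 4.76% (1.34% of all), the AP-1 site TGANTCA in 7.14% (5.51%), the interferon element core GAAANNGAA in 2.38% (7.08%) and the heat shock unit GAANNTTC in 2.38% (5.72%), where 2.38% is 1 window.

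Of 17 NF-kappaB factors and feedback genes, 1 rose and 1 fell, against 3.39% of all genes called. Relb, a subunit of the factor, was at 8.02, 9.48 and 7.91 CPM at 6h and 16.0, 11.5, 15.7 and 18.4 at 1d (log2 change 0.81 ± 0.17 SE, limma adjusted p = 0.0253). Tnfaip3, the deubiquitinase A20 that shuts the pathway off, went the other way, from 76.1, 40.3 and 67.8 to 28.7, 29.9, 28.7 and 33.0 (log2 change -0.97 ± 0.22 SE, limma adjusted p = 0.0308). Both calls were lost without 6h 1, 6h 3 or 1d 4, and that of Tnfaip3 also without 1d 2 (adjusted p up to 0.126 and 0.159). Of 15 chemokines and cytokines none passed in limma (1 at an unadjusted p under 0.05, 1 in edgeR, 1 in DESeq2). Neither did any of 22 immediate early and AP-1 genes (1 at an unadjusted p under 0.05, 0 in edgeR and DESeq2): Fos was at 43.5, 28.5 and 33.6 CPM at 6h and at 32.1, 25.4, 45.1 and 75.8 at 1d, with 1d 4 the highest. The median of that list was 0.29, and 0.04 without 1d 4.

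Interferon-stimulated genes and class I antigen presentation genes did not pass in limma at all: 0 of 43 and 0 of 20 (4 and 4 at an unadjusted p under 0.05, 0 and 0 in edgeR, 1 and 1 in DESeq2). Over all genes 3.39% passed in limma. Their median changes were 0.38 and 0.35, and 0.12 and -0.24 with the depth set as a covariate. B2m, the light chain of class I molecules, shows the overlap: 699, 659 and 476 CPM at 6h and 481, 548, 823 and 773 at 1d. Ifit3, an antiviral effector, was at 276, 239 and 142 and at 222, 285, 267 and 349. For both genes the spread within each group was as wide as the distance between the groups.

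Of 20 complement genes tested, 2 rose, against 1.77% of all genes, and none fell, with a median change of 0.14. Cfi, factor I, the plasma protease that cleaves C3b and C4b, was at 1.05, 1.6 and 2.15 CPM at 6h and at 18.4, 11.2, 5.63 and 17.4 at 1d, and stayed at 10.5 to 23.4 at 3d. Its log2 change was 2.60 ± 0.37 (SE, limma adjusted p = 0.00269). C4b, the precursor of the C4 fragments, rose from 54.4, 72.5 and 57.5 to 238, 193, 263 and 174 CPM (log2 change 1.8 ± 0.34 SE, limma adjusted p = 0.0139) and was at 149.9 to 314 at 3d. Reads of C4b can be shared with its near-identical copy C4a, and the call was lost without 6h 1 (adjusted p = 0.0751) or 6h 3 (0.0864). C3 itself was at 8.56, 11.5 and 7.32 and at 27.2, 16.0, 11.1 and 19.6 CPM and did not pass (log2 change 0.93, limma adjusted p = 0.0863). The 6h and 1d libraries overlap for C3 in 1 library, 1d 3.

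The unfolded protein and integrated stress response held the most calls of any list: 9 of 26 genes rose and none fell, against 1.77% of all genes, and the median change of the list was 0.35. At an unadjusted p under 0.05 there were 16 rises; edgeR called 9 and DESeq2 14. Hspa5, which encodes BiP, the main chaperone of the endoplasmic reticulum, was at 307, 302 and 262 CPM at 6h and at 607, 512, 510.1 and 572 at 1d. Each 1d library lay above every NB (345 to 487) and 3d (325 to 371) library. Its log2 change was 0.92 ± 0.12 (SE, limma adjusted p = 0.00153). Sdf2l1, a partner of BiP, rose from 6.97, 7.88 and 5.61 to 15.9, 17.8, 15.5 and 19.4 CPM (log2 change 1.27 ± 0.18 SE, limma adjusted p = 0.00269). Pdia6, a disulfide isomerase, was at 133, 141 and 116 and then at 223, 207, 195 and 214 (log2 change 0.69 ± 0.11 SE, limma adjusted p = 0.00471). Hyou1, an exchange factor for BiP, was at 71.4, 64.5 and 63.4 and then at 95.8, 92.7, 96.7 and 115 (log2 change 0.58 ± 0.09 SE, limma adjusted p = 0.00431). For all 4, every 1d library lay above all other RPE libraries. The 6h libraries lay below all others for Hspa5, whereas NB A1 or 3d libraries reached into the 6h range for the other three.

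The other 5 risen members were the secreted factor Manf (log2 change 0.85), the co-chaperones Dnajb11 (0.62) and Dnajb9 (0.61), Creld2 (0.60) and the isomerase Pdia4 (0.46). They had limma adjusted p from 0.00750 to 0.0375 and 1d libraries that did not overlap 6h. Manf was at 48.5, 47.4 and 44.5 CPM at 6h and at 98.4, 77.1, 77.6 and 88.2 at 1d. The 4 genes Hspa5, Sdf2l1, Pdia6 and Hyou1 kept the call in every fit that left out 1 library. Manf lost it without 6h 3 (adjusted p = 0.0628), Pdia4 and Dnajb11 without 6h 1, 6h 3, 1d 2 or 1d 4 (up to 0.142 and 0.124), and Creld2 and Dnajb9 in every such fit except that without 1d 3 (up to 0.184). NB A1 was below all NB B libraries for 16 of the 26 genes, against 31.7% of all genes. Hspa5 (345 against 417 to 487) and Pdia6 (124 against 154 to 166) were among them, the direction of 6h against 1d. With the depth set as a covariate the median of the list was 0.17 and no member passed; Hspa5 then had a change of 0.55 and Hyou1 of 0.54. The transcription factors of the integrated stress branch did not pass: Atf4 was at 159 to 162 CPM at 6h and at 178, 160.3, 171 and 207 at 1d, and Ddit3 at 17.2 to 19.2 and at 33.1, 30.0, 17.9 and 22.9 (limma adjusted p = 0.466 and 0.145).

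The ER stress response element, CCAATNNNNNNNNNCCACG on either strand, was found in 3 of the 7 promoter windows of called members, in 7 of the 23 windows of the list, called or not, and in 21 of the 14906 windows of all genes tested (0.141%). The motif was chosen after the calls were seen. Of the 9 called genes, 7 had a promoter in the RefSeq table. The 3 with the element are printed from 200 bases before the start, on GRCm38.p6 and written 5′ to 3′ along the gene, with the element in capitals: Hspa5 (chr2:34771890-34772089, plus strand), Pdia6 (chr12:17266389-17266588, plus strand) and Creld2 (chr15:88819446-88819645, plus strand). Its first base lies 65, 98 and 126 bases before the start.
Hspa5: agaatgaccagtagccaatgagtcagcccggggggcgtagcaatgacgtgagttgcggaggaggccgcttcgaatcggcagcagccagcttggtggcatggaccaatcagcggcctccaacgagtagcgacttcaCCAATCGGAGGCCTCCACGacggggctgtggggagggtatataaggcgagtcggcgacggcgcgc
Pdia6: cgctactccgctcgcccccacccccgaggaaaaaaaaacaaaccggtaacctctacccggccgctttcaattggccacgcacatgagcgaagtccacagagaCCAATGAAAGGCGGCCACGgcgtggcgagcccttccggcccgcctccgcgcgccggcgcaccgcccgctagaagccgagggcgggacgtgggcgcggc
Creld2: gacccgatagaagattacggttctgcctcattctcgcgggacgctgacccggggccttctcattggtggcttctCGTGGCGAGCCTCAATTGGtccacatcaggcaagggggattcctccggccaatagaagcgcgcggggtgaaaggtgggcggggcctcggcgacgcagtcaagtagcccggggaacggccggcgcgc
In Creld2 the element stands on the opposite strand, so it reads as its reverse complement. A match is a description of the letters and says nothing about which factor was bound.

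Of 26 phagocytosis and lysosome genes, 3 rose, against 1.77% of all genes, and none fell, with a median change of 0.22. Ctsd, the aspartic protease that digests outer segment protein, was at 694, 818 and 778 CPM at 6h and at 2046, 1854, 1285 and 2384 at 1d. The groups lie far apart, but the 3d libraries (1342 to 2032) overlap 1d. Its log2 change was 1.28 ± 0.21 (SE, limma adjusted p = 0.00767). Ctsb, a cysteine protease of the same compartment, rose from 709, 783 and 747 to 1401, 1214, 1131 and 1299 CPM (log2 change 0.75, limma adjusted p = 0.0139). Tfeb, the factor that drives lysosomal genes, was even within groups: 21.6, 24.4 and 22.4 at 6h and 35.4, 37.4, 36.8 and 35.5 at 1d (log2 change 0.66, limma adjusted p = 0.0318). The calls were lost without 6h 1 or 6h 3 for all 3 (adjusted p 0.0536 and 0.0528 for Ctsd, 0.0805 and 0.0864 for Ctsb, 0.130 and 0.141 for Tfeb), and for Tfeb also without 6h 2, 1d 2 or 1d 4. Their NB A1 levels were 1082, 849 and 19.1 CPM, and those of NB B 1037 to 1357, 948 to 1049 and 22.6 to 32.3.

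Of 16 metallothionein and iron handling genes, 2 rose, against 1.77% of all genes, and 14 did not pass. Trf, the iron carrier transferrin, was at 90.2, 135 and 121 CPM at 6h and at 470.3, 393, 242 and 494 at 1d, and the 3d libraries reached 467 to 762. It rose by 1.76 ± 0.24 on the log2 scale (limma adjusted p = 0.00153), held in every fit that left out 1 library, and its 6h libraries lay below all NB libraries (190.2 to 261). Mt2, a metallothionein, rose from 183, 191 and 186 to 400.1, 322, 224 and 453 CPM (log2 change 0.86, limma adjusted p = 0.0393), with its neighbour Mt1 not past the test (0.26, adjusted p = 0.448). Of 21 genes of NRF2 and oxidative defence, 2 passed, against 3.39% of all genes: Hmox1, which breaks down heme, rose (19.3, 24.4 and 20.6 to 39.8, 31.8, 27.0 and 42.7 CPM) and Nqo1, a quinone reductase, fell (63.6, 78.0 and 71.3 to 45.5, 53.9, 49.8 and 47.6). Their log2 changes were 0.69 and -0.52 (limma adjusted p = 0.0498 and 0.0391). The calls for Mt2, Hmox1 and Nqo1 were each lost in all but 1 of the 7 fits that left out a library, the exception being 1d 3 (adjusted p up to 0.159, 0.187 and 0.162).

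In lipid metabolism, 2 of 19 genes of fatty acid oxidation and PPAR alpha targets rose and 1 fell, against 1.77% and 1.63% of all genes. Plin2, the coat protein of lipid droplets, went from 96.2, 118 and 106 to 273, 189, 165 and 263 CPM, against 51.9 to 70.8 in NB and 90.0 to 137 at 3d (log2 change 1.03 ± 0.18 SE, limma adjusted p = 0.0107). Ppara, the receptor that drives fatty acid oxidation, fell from 6.32, 5.91 and 7.72 to 2.29, 1.73, 1.47 and 1.82 CPM (log2 change -1.62 ± 0.29 SE, limma adjusted p = 0.0114). NB A1 held 7.05 CPM of Ppara and NB B 1.88 to 4.30. Acaa2, the last enzyme of the oxidation spiral in mitochondria, rose by 0.51 (limma adjusted p = 0.0146). All 3 calls were lost without 6h 1 or 6h 3 (adjusted p 0.0536 to 0.0947). Of 29 nuclear genes of oxidative phosphorylation, 2 rose, against 1.77% of all genes (Ndufa2 by 0.66 and Ndufv1 by 0.38 on the log2 scale), 14 reached an unadjusted p under 0.05 upward and DESeq2 called 11. Both calls were lost in at least 5 of the 7 fits that left out a library (without 6h 1, 6h 2, 6h 3, 1d 2 or 1d 4, and for Ndufv1 also 1d 1). NB A1 was below all NB B libraries for 20 of the 29, against 31.7% of all genes. The 13 mitochondrially encoded genes had a median of -0.34 and none passed in limma (3 falls at an unadjusted p under 0.05, 0 in edgeR, 1 in DESeq2). That median was -0.15 without 1d 4 and 0.07 with the depth set as a covariate. NB A1 lay above all NB B libraries for 11 of the 13, against 33.3% of all genes.

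The 12 largest falls named here were taken by the same rule as the rises, with the mean of 5 CPM or more at 6h. Called genes such as A930004J17Rik (log2 change -1.77) and Slc6a20b (-1.75) did not meet it, though they fell more than Tmem56 (-1.58), which did. The 12 falls differ from the 12 rises in 2 measured ways. For 11 of the 12, Unc13c being the exception, NB A1 lay above all NB B libraries, and none passed with the depth set as a covariate. Only Inpp5k, Tpbgl and 4933429O19Rik fell in every fit that left out 1 library, while all 12 were called by edgeR and 11 by DESeq2, which gave no adjusted p for Gm47171. For 4 of them (Inpp5k, 4933429O19Rik, Gm534, Tmem56) every 1d library lay below all 12 other RPE libraries.

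Inpp5k (ENSMUSG00000006127, chromosome 11, 75629067 to 75648865 on GRCm38.p6), a phosphatase of inositol phosphates and phosphoinositides, was the most abundant. It was at 513, 733 and 689 CPM at 6h and at 121, 214, 128 and 139 at 1d, with the groups far apart. The fall was -2.12 ± 0.24 (SE) on the log2 scale (limma adjusted p = 0.000363), and -1.41 with the depth set as a covariate. NB A1 held 1211 CPM, NB B 686 to 809 and 3d 597 to 1026, so the 1d group stood alone. Its neighbour Pitpna (75588079 to 75628804), a phosphatidylinositol transfer protein, also fell, from 247, 301 and 278 to 201, 201, 179.7 and 218 CPM (log2 change -0.46, limma adjusted p = 0.0354). That call was lost in every fit that left out a library except that without 1d 1 (adjusted p up to 0.153).

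Tpbgl, a leucine-rich repeat membrane protein, was at 32.6, 37.6 and 40.3 CPM at 6h and at 9.78, 8.83, 5.63 and 10.5 at 1d (log2 change -2.05 ± 0.26 SE, limma adjusted p = 0.000790). In this case 6h was the group that stood out: NB libraries were at 7.45 to 13.9 CPM, within or next to the 1d range. The neighbouring loci 4933429O19Rik (chromosome 14, 48878873 to 48887112) and Gm534 (48869271 to 48881919) overlap on the annotation, so their reads may not be separable. They fell from 19.7, 18.7 and 19.1 to 4.65, 7.74, 3.24 and 3.17 CPM and from 24.6, 40.2 and 38.4 to 6.78, 14.8, 6.02 and 6.82. Both changed by -2.0 on the log2 scale (limma adjusted p = 0.00560 and 0.00665), and that of Gm534 was lost without 6h 3 (0.0578). Tmem56, a membrane protein gene, was at 206, 346 and 377 and then at 118, 112, 77.5 and 96.0 CPM, with NB A1 at 652 and NB B at 255 to 357 (log2 change -1.58 ± 0.30 SE, limma adjusted p = 0.0139). Its call was lost without 6h 2 (0.0507) or 6h 3 (0.101).

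Some of the fallen genes are genes of photoreceptors or neurons. Ppef2, a protein phosphatase of rods, fell from 47.8, 25.6 and 50.9 to 15.5, 14.1, 7.72 and 6.98 CPM, and 6h 2 was the low library at 6h (log2 change -1.88 ± 0.32 SE, limma adjusted p = 0.00958). E130310I04Rik had the same shape, at 14.5, 6.54 and 17.2 and then at 3.31, 2.91, 2.08 and 0.793. Unc13c, which primes synaptic vesicles, was at 52.5, 18.1 and 9.99 and at 6.55, 2.55, 4.4 and 2.14 CPM, a wide 6h range (log2 change -2.41 ± 0.59 SE, limma adjusted p = 0.0391). The summed rod markers were at 10390, 6128 and 16922 CPM at 6h and at 9863, 8639, 5526 and 3673 at 1d, and the groups overlap. At 6h, Ppef2 and E130310I04Rik were lowest in 6h 2, as the rod sum was, and Unc13c was lowest in 6h 3, where the rod sum was highest. Of the 255 fallen genes with a retina value, 120 (47.1%) were at least 4-fold higher in NB retina than in NB RPE, against 14.0% of all genes and 3.15% of the 286 risen genes. Values of the 2 tissues were scaled separately, so the 4-fold line between them is approximate. Whether retina left on the RPE gives the falls was not tested. In bulk samples fewer cells of a type and less RNA per cell cannot be told apart. None of the 15 rod genes passed in limma (3 falls at an unadjusted p under 0.05, 0 in edgeR, 3 in DESeq2), and their median change was -0.58, or -0.32 without 1d 4. Calls for Ppef2 and E130310I04Rik were lost without 6h 1 or 6h 3 (adjusted p 0.0612 to 0.0864), and that of Unc13c without 6h 1, 6h 2, 6h 3, 1d 2 or 1d 4 (up to 0.163).

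The fallen genes were also long. Their span on the annotation had a median of 45.4 kb, against 9.46 kb for the risen genes and 21.2 kb for all genes tested. Low or unplaced loci complete the 12. Gm47171 fell from 17.5, 20.3 and 20.4 to 3.71, 2.64, 4.79 and 3.57 CPM, but NB A1 was at 34.4 and NB B at 4.43 to 6.35, and with the depth set as a covariate its change was 0.28. Gm45895 went from 17.5, 17.4 and 14.5 to 6.71, 3.55, 7.02 and 4.6, and Gm47647 from 8.52, 4.02 and 10.7 to 2.21, 1.73, 1.78 and 0.952. For Gm47171 the deeper libraries of both labels (17.5 to 34.4 CPM) lay above all shallower RPE libraries, which reached 10.3 at 3d. The calls were lost without 6h 1 for all 3 (adjusted p = 0.0966, 0.0543 and 0.128), without 6h 3, 1d 2 or 1d 4 for Gm47171 and Gm47647 (up to 0.166), and without 6h 2 for Gm47171 (0.0694).

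**Figure D3:**
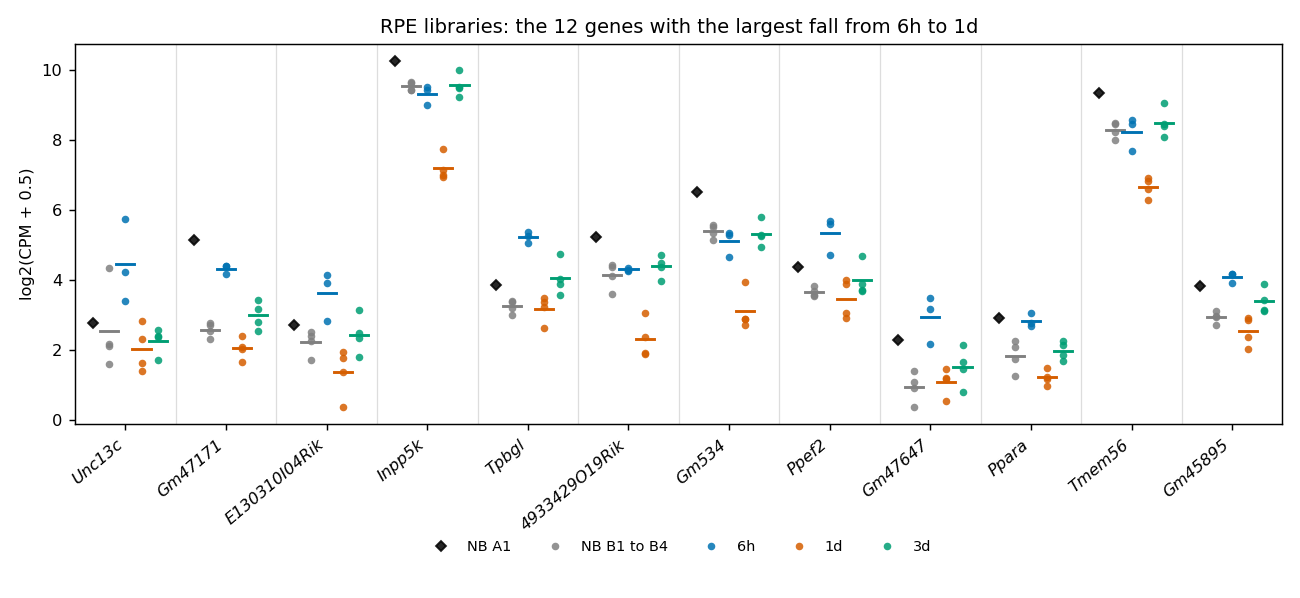
Levels of the 12 genes with the largest falls under the rule for named genes as log2(CPM + 0.5), 1 point a library, in NB A1 (diamond), NB B, 6h, 1d and 3d of RPE. For every gene the 1d libraries lie below the 6h libraries, which the rule required. For every gene but Unc13c the NB A1 diamond lies above the 4 NB B points.

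Of 33 genes of RPE identity and transport, 3 fell, against 1.63% of all genes, and none rose: Kcnj13, the apical potassium channel, from 148, 237 and 252 to 128, 114, 90.1 and 106 CPM, Itgb8, an integrin subunit, from 241, 405 and 433 to 161, 207, 125 and 134, and Pitpna, given above. Their limma adjusted p were 0.0404, 0.0373 and 0.0354. In each, 6h 1 was the 6h library nearest to 1d. Itgb8 was at 1096 CPM in NB A1 and 466 to 664 in NB B, higher than at either time. The calls for Kcnj13 and Itgb8 were lost without 6h 2, 6h 3, 1d 3 or 1d 4, Kcnj13 also without 1d 2 and Itgb8 without 6h 1 (adjusted p up to 0.193 and 0.184).

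No gene of the retinoid cycle passed in limma, out of 15 (5 falls and 1 rise at an unadjusted p under 0.05, 0 in edgeR, 1 fall in DESeq2), and the median change was -0.33, or 0.12 with the depth set as a covariate. Rpe65, the isomerase of the cycle, came nearest: 721, 1036 and 1076 CPM at 6h and 461, 613, 293 and 359.7 at 1d, without overlap (log2 change -1.16 ± 0.31 SE, limma adjusted p = 0.0506, DESeq2 adjusted p = 0.0078). NB libraries held 1752 to 3763 CPM and 3d libraries 1306 to 2722, so both times lay below them. Lrat, which makes retinyl esters, was at 321, 588 and 609 and at 371, 308, 197 and 282 (log2 change -0.78, limma adjusted p = 0.135). Rgr, an opsin of the RPE, overlapped fully at 2704, 3598 and 3440 and at 4155, 3943, 2448 and 4051 (0.15, 0.813). Of 24 melanin genes 1 fell, against 1.63% of all genes: Oca2, a melanosomal membrane protein, from 89.4, 112 and 105 to 53.7, 63.1, 54.3 and 48.7 CPM (log2 change -0.89 ± 0.19 SE, limma adjusted p = 0.0278), a call lost without 6h 1, 6h 2, 6h 3 or 1d 4 (up to 0.125). Tyrp1, an enzyme of melanin synthesis, was at 518, 792 and 741 and at 575, 502, 798 and 286 and did not pass (limma adjusted p = 0.417).

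Of 20 clock genes, 2 fell, against 1.63% of all genes, and none rose. Cry1, a repressor of the clock, was at 24.8, 20.7 and 20.8 CPM at 6h and at 12.7, 11.7, 11 and 12.2 at 1d, and Per3 at 127, 132 and 132 and at 76.1, 90.8, 62.4 and 70.9. Both were even within the 6h group. Their log2 changes were -0.86 ± 0.17 and -0.80 ± 0.18 (SE, limma adjusted p = 0.0206 and 0.0312). NB A1 sat with 6h (19.9 and 156 CPM) and NB B with 1d (10.2 to 13.7 and 77.4 to 98.7), and with the depth set as a covariate Per3 had a change of 0.01. The time of day of collection is not given, and its part was not tested. Per2 was at 47.7, 54.6 and 52.7 and at 28.9, 31.9, 20.8 and 22.5 CPM (log2 change -0.99, limma adjusted p = 0.0557), whereas Dbp (0.19, 0.734) and Nr1d1 (0.47, 0.176) had positive changes that did not pass. The Cry1 call was lost without 6h 1 (0.112) or 6h 3 (0.0864), and that of Per3 without 6h 1, 6h 2, 6h 3 or 1d 4 (up to 0.133).

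Among 32 genes of chromatin and DNA methylation enzymes, the theme of the study's title, 2 fell, against 1.63% of all genes, and none rose. Tet2, which oxidises methylcytosine, was at 42.8, 38.8 and 43.1 CPM at 6h and at 21.7, 24.4, 28.6 and 26.7 at 1d (log2 change -0.71 ± 0.18 SE, limma adjusted p = 0.0455). NB A1 was at 55.4 and NB B at 28.5 to 37.7, and the change with the depth set as a covariate was 0.01. Hdac9, a class IIa histone deacetylase, fell from 8.52, 5.87 and 10.1 to 5.21, 2.73, 3.94 and 1.98 (log2 change -1.17, limma adjusted p = 0.0349). Of 20 p53 targets and growth arrest genes 2 fell, against 1.63% of all genes: Sesn1, a stress-induced inhibitor of mTOR signalling, from 62.5, 63.1 and 63.5 to 36.5, 35.9, 45.5 and 36.3 (log2 change -0.71 ± 0.12 SE, limma adjusted p = 0.00767), and Trp53inp1 from 24.4, 26.4 and 27.8 to 14.0, 14.5, 19.7 and 17.5 (-0.67, 0.0352). Library 1d 3 was the highest of the 1d group for both. Sesn1 lost its call without 6h 3 (0.0575), Hdac9 without 6h 1, 6h 3, 1d 2 or 1d 4 (up to 0.178), and Tet2 and Trp53inp1 in every fit except that without 1d 3 (up to 0.184 and 0.165).

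The other lists held 0 to 2 calls each, where 3.39% of all genes were called. Tnfrsf1a, the receptor 1 for tumour necrosis factor, was the 1 death gene of 20 to rise (106, 114 and 90.8 to 169, 162, 152 and 206 CPM, limma adjusted p = 0.0192), Fkbp4 the 1 heat shock or chaperone gene of 23 (176, 179.8 and 177 to 288, 252, 213 and 270.3, adjusted p = 0.0200) and Nop16 the 1 ribosome biogenesis gene of 23 (log2 change 0.39, adjusted p = 0.0373). Of the endothelin genes, the ligand Edn2 rose (3.65, 0.669 and 1.08 to 12.1, 15.3, 3.55 and 5.16 CPM, adjusted p = 0.0337, with 1d 3 below 6h 1) and the receptor Ednrb fell (23, 23.8 and 27.0 to 11.3, 9.74, 12.5 and 10.8, adjusted p = 0.0373). These 2 were the only calls among 26 growth and angiogenic factors in limma. Vegfa, the vascular growth factor, was just outside the threshold: 165, 222 and 191 against 109, 109, 105 and 84.3 CPM (log2 change -0.91, adjusted p = 0.0505). Among 26 junction and cytoskeleton genes Tnnt2, troponin T, rose (5.67, 3.49 and 3.57 to 18.0, 19.9, 5.94 and 8.88) and Cldn1, a tight junction protein, fell (133, 187 and 187 to 76.2, 88.8, 98.0 and 84.1; adjusted p = 0.0412 and 0.0366). With the depth set as a covariate the log2 change of Cldn1 was 0.0083. All 7 calls of this paragraph were lost without 6h 3 (adjusted p from 0.101 to 0.182), each but that of Edn2 also without 6h 1 (0.0669 to 0.135), and each also without 1d 4 (0.0568 to 0.0874). Further calls were lost without 6h 2 (all but Tnfrsf1a; 0.0513 to 0.109), 1d 2 (all but Tnfrsf1a and Fkbp4; 0.0761 to 0.107) and, for Edn2, Tnnt2 and Cldn1, 1d 1 (0.0525 to 0.0649). Glycolysis (0 of 19; 3 at an unadjusted p under 0.05, 0 in edgeR, 2 in DESeq2), cholesterol synthesis (0 of 23; 3, 0, 0) and proliferation (0 of 25; 6, 0, 2) held no call in limma.

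**Figure D4:**
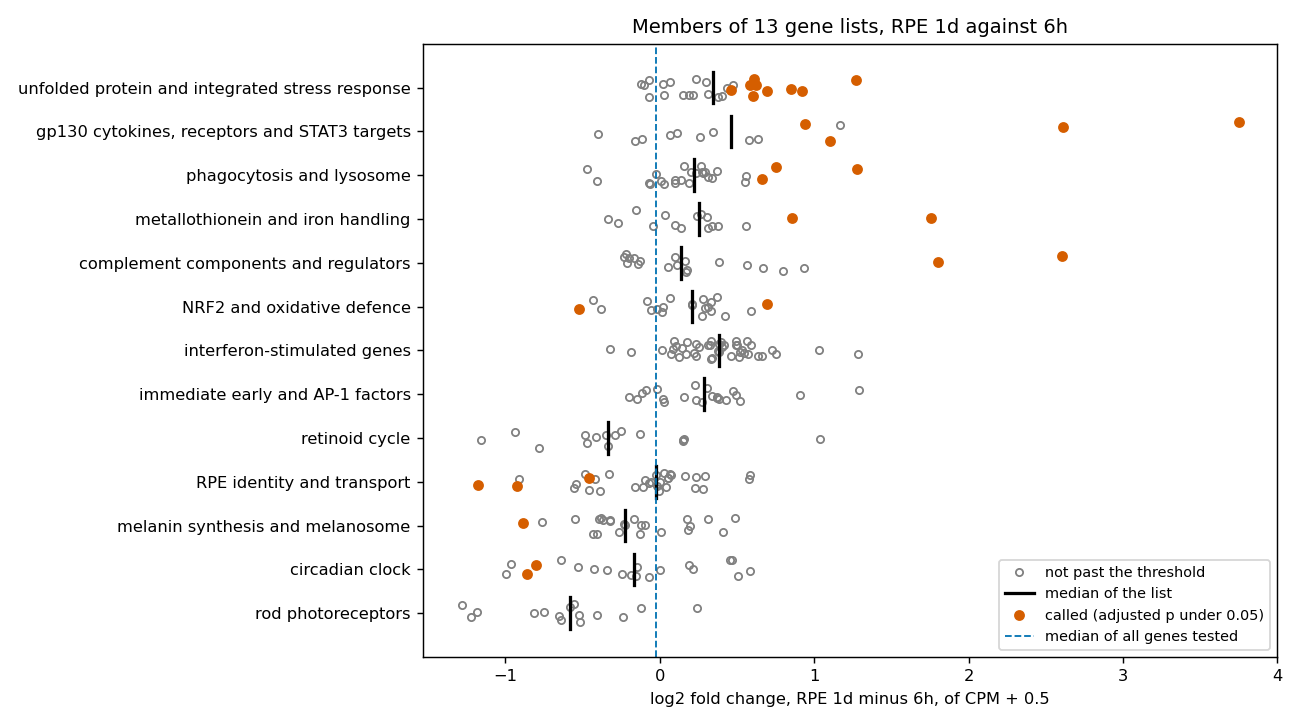
Log2 changes from 6h to 1d of the genes tested in 13 of the lists, 1 point a gene on the horizontal axis and 1 line a list, with genes that passed the test in colour. The unfolded protein list has 9 coloured points, all to the right of 0, and the retinoid cycle and interferon lists have none.

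Markers of cells other than RPE held 2 calls in opposite directions, both among 17 genes of microglia and macrophages, where 3.39% of all genes were called. Cd68, a lysosomal protein, rose (16.9, 19.5 and 13.5 to 26.2, 32.2, 31.5 and 44.2 CPM, limma adjusted p = 0.0391). Csf1r, the receptor for colony stimulating factor 1, fell (105, 156 and 149.8 to 68.8, 96.1, 56.6 and 73.4, limma adjusted p = 0.0382). Both were lost without 6h 1, 6h 2, 6h 3 or 1d 4, Cd68 also without 1d 2 and Csf1r without 1d 1 or 1d 3 (up to 0.186 and 0.178). The summed level of the list was 300.9 to 349.2 CPM at 6h and 248 to 326 at 1d. Rods, cones, inner retinal neurons, Müller glia, neutrophils, T and NK cells, endothelium, fibroblasts, melanocytes, red cells, lens, surface epithelium and muscle held 0 calls in limma and in edgeR. Over all genes, limma called 3.39% and edgeR 3.45%. An unadjusted p under 0.05 was reached by 5 of 12 endothelial genes, all falls, 4 of 9 cone genes, 3 of 15 rod genes, 2 fibroblast genes and 1 gene each of inner retinal neurons, Müller glia, melanocytes and red cells. In DESeq2 rods had 3 calls, cones 2, and inner retinal neurons, endothelium and melanocytes 1 each. Over all genes, 23.8% reached an unadjusted p under 0.05 and DESeq2 called 9.89%. Median changes of these lists ran from -0.61 (lens) to 0.59 (red cells), and that of surface epithelium was 0.32, or -0.51 with the depth set as a covariate. The part of these tissues in the gene results above was not tested.

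The neural retina of mice with the same labels gave the closest comparison, with 3 libraries at 6h (22588712 to 32351974 reads) and 4 at 1d (9448854 to 11272813), so its depth differs between the times in the same direction. There 5932 of 16926 genes passed (35.0%). Of the 286 genes that rose in RPE and were tested in retina, 196 rose there too (68.5%, or 6.89% of the 2843 retina rises tested in RPE), and of 255 falls 174 fell (68.2%, or 6.30% of 2762). A test of the difference between the 2 changes passed for 886 of 15105 genes (5.87%): 485 were more positive in RPE and 401 more negative, and 122 of them had been called in RPE.

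Several leading RPE genes differed between the tissues. Chil1 changed by 3.48 in RPE and by 1.44 in retina, a difference of 2.04 ± 0.36 (SE, limma adjusted p = 0.000824). Atp1b2, a beta subunit of the sodium pump, rose in RPE from 401, 309 and 447 to 1418, 1029, 584 and 1052 CPM (log2 change 1.35, adjusted p = 0.0104), against -0.47 in retina (difference 1.82 ± 0.26 SE, limma adjusted p = 5.3e-05). Npl (difference 1.67), Timp1 (1.63), Osmr (1.19) and Serpine3 (1.72) were also more positive in RPE (limma adjusted p = 0.00576, 0.0195, 0.00364 and 0.0354). The differences of A2m (0.14), Prph (0.18), Serpina3n (0.99), Lcn2 (1.17) and Cfi (1.00) did not pass (limma adjusted p from 0.162 to 0.825). Prss56, which rose in both tissues, was less positive in RPE (difference -1.71, limma adjusted p = 0.0449). Mmp3 and Lalba had no retina value. More negative in RPE were Ednrb (-1.12 against 1.76; difference -2.88 ± 0.31 SE, limma adjusted p = 9.96e-07), Tpbgl (-2.05 against 0.11; -2.16 ± 0.29), Inpp5k (-2.12 against -0.77; -1.35 ± 0.25), Unc13c (-2.41 against -0.25) and Tnnt2, which rose in both (1.4 against 4.26; -2.85 ± 0.42). Endou, an endoribonuclease, did not pass in RPE (log2 change -1.09, adjusted p = 0.0689) and was at 2.24 in retina (difference -3.33 ± 0.41 SE, limma adjusted p = 7.86e-06).

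The mitotic genes Ccnb2, Plk1 and Nusap1 had changes of 0.94, 1.06 and 0.91 in RPE, none past the test there, and -1.14, -0.97 and -0.93 in retina, and the differences passed (limma adjusted p = 0.0231, 0.0132 and 0.0275). Their RPE levels were low: Ccnb2 was at 7.91, 5.65 and 3.83 CPM at 6h and at 8.76, 8.83, 14.4 and 13.8 at 1d, with NB A1 at 2.50 and NB B at 6.48 to 18.5. Among genes chosen after their values were seen, the interferon factor Stat2 (0.17 in RPE and 1.27 in retina) and the class I activator Nlrc5 (0.20 and 3.00) had differences, RPE minus retina, of -1.1 and -2.80 on the log2 scale (limma adjusted p = 0.0154 and 0.00703). Other interferon-induced genes had differences that did not pass, of -0.53 (Irf1), -0.87 (B2m), -0.69 (Ifit3) and 0.89 (Gbp2), with limma adjusted p of 0.463, 0.213, 0.425 and 0.257. Hspa5 was more positive in RPE (0.92 against 0.26, limma adjusted p = 0.00979), as were Hyou1 (0.58 against 0.07, 0.00325) and Atf4 (0.15 against -0.54, 0.00364). Sdf2l1 (1.27 against 0.95) and Pdia6 (0.69 against 0.56) rose in both tissues, and their differences did not pass (limma adjusted p = 0.469 and 0.607).

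**Figure D5:**
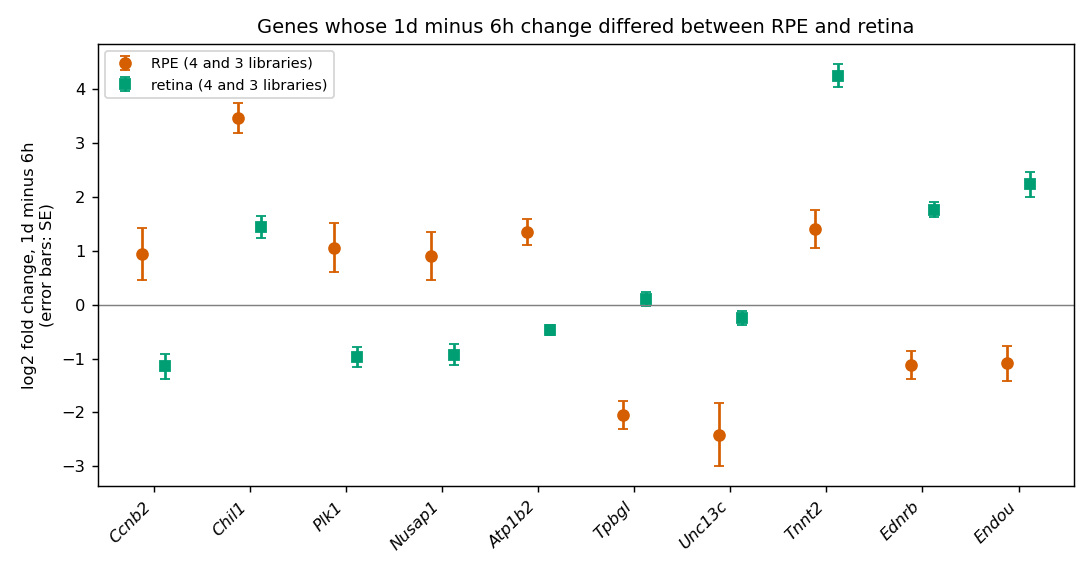
Log2 change from 6h to 1d with its standard error for 10 genes in RPE and in retina, 5 with the largest tissue differences in each direction under the rule for named genes. Ednrb lies below 0 in RPE (-1.12) and above 0 in retina (1.76), and Chil1 lies above 0 in both with the larger value in RPE.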

How the data were processed

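RNA was sequenced from TruSeq Stranded mRNA libraries, per the labels' protocols. Trimmomatic, STAR, edgeR and the build GRCm38 are named in the submitters' processing notes, with no versions; the strand setting of the counting is not given in the sources used here. The authors deposited 1 table per tissue with a signal per gene and library in CPM, counts divided by effective library sizes; whole reads were recovered for 100% of values (tolerance 0.01 read), and TMM on them returned the authors' scaling. The deposited fold changes and p-values were not used.

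A gene was kept where 3 or more RPE libraries had a CPM of 1 or more (16712 of 16714; 7 identifiers had no symbol). limma 3.58.1 (R 4.3.3) was fitted to log2(CPM + 0.5) in all 16 RPE libraries with a variance trend, so NB and 3d share in the estimate of the spread, with Benjamini-Hochberg adjustment and a threshold of 0.05. On this scale the changes of low genes are understated. edgeR 4.0.16 and DESeq2 1.42.0 on recovered reads, other pseudocounts, filters and scalings, thinned 6h reads, the depth set as a covariate, a replicate block and leaving out each library were alternatives. The tissue difference was 1 contrast in a fit of both tissues. That fit treated RPE and retina libraries as independent, and whether some of them came from the same mice was not taken into account. The scripts were tested on simulated counts. Named genes are the 12 with the largest changes in each direction among those called, with groups that do not overlap and a mean of 5 CPM or more at the higher time, likewise the 5 leading genes per direction of the tissue difference, up to 4 called members of each of 44 lists, Abca4 and Rdh8; others are marked where they appear or are list members given as examples. The comparison, the lists and the motif set were chosen with earlier results of these data known. NB libraries were matched to their group only, and each library is 1 mouse, so p-values measure the spread between mice. Promoters, gene positions and spans are from RefSeq, GRCm38.p6; 94.5% of genes tested had a span. Some genes that were looked at are not reported here.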

Additional observations from a re-analysis of the deposited data

Results flagged for a closer look

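Each of 90 groups of 4 libraries was looked at for a library far from the other 3, and 6 had one; chance gives this in about 1 in 20 groups. At 1d the far libraries were 1d 2 for Gm534 (14.8 CPM, the highest), 1d 1 for Socs3 (48.3) and Cd63 (639), 1d 3 for Sesn1 (45.5) and 1d 4 for Surf4 (249) and Ssr2 (122). In each case it was the high library of the group, so that the rises of Socs3, Cd63, Surf4 and Ssr2 are larger with it and the falls of Gm534 and Sesn1 smaller.

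The change from 6h to 1d differed between RPE and retina for 886 genes by a test of the difference itself. Those named by size were Chil1 (2.04), Ccnb2 (2.08), Plk1 (2.03), Nusap1 (1.83), Atp1b2 (1.82), Endou (-3.33), Ednrb (-2.88), Tnnt2 (-2.85), Unc13c (-2.17) and Tpbgl (-2.16), all as the log2 change in RPE minus that in retina. The depth of the libraries differs between the times in both tissues.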

How the results depend on the processing

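The counts of 295 rises and 272 falls stayed within 1.5 times with pseudocounts of 0.1 or 2, no filter, TMM, edgeR, the 6h and 1d libraries alone, and 6h reads thinned to the shallower depth. Rises were 111 with plain library totals, 6 with a minimum of 2-fold, 959 with DESeq2, 1392 with array weights, 4 with the depth set as a covariate and 542 without the NB libraries; the falls were 0, 693, 1479, 0 and 627 under the latter 5. Leaving out 1 library gave 39 to 429 rises and 7 to 397 falls, and 565 (without 6h 3) to 1484 (without 1d 1) tissue differences, of which there were 886. With the replicate block there were 88 rises, 112 falls and 558 tissue differences. In their deviations from the group mean, same-numbered 6h and 1d libraries had correlations of -0.164, -0.217 and -0.197. Those of other-numbered libraries ran from -0.449 to 0.497. So few libraries cannot show whether equal numbers mark mice handled together. With the depth set as a covariate 5 named genes changed sign, to 0.28 (Gm47171), 0.0083 (Cldn1), 0.0063 (Per3), 0.012 (Tet2) and 0.32 (Rgs9), and 24 of 44 list medians moved by more than their spread; the cause was not tested. In read depth, 1 read is worth 0.0361 to 0.0372 CPM in the 6h libraries and 0.0772 to 0.0910 in the 1d libraries.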

Other observations

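The genes given here are in no list and were picked singly after their values were seen. Surf4, a cargo receptor, was at 134, 149 and 134 CPM at 6h and at 213, 212, 211 and 249 at 1d (log2 change 0.67 ± 0.10 SE, limma adjusted p = 0.00340), and it rose in every fit that left out 1 library. Lman1, a lectin of the same route, was at 118, 144 and 142 and at 247, 209, 189 and 238 (0.71, adjusted p = 0.0219). The translocon subunits Sec61a1 (0.67, 0.0278) and Ssr2 (0.69, 0.0219) and the isomerase Fkbp11 (0.93, 0.0312) rose as well. The last 4 lost the call without 6h 1, 6h 3 or 1d 4, Ssr2, Sec61a1 and Fkbp11 also without 6h 2, and Sec61a1 and Fkbp11 without 1d 2 (adjusted p 0.0556 to 0.14).

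A pair of receptor genes outside the lists fell. Hnf4a, a nuclear receptor, was at 16.0, 21.3 and 19.0 CPM and at 5.29, 8.92, 4.32 and 6.50 (log2 change -1.55 ± 0.27 SE, limma adjusted p = 0.0107), and Tshr, the thyrotropin receptor, at 59.9, 82.2 and 81.0 and at 29.0, 31.6, 18.9 and 25.3 (-1.50 ± 0.26 SE, 0.0106). Every 1d library lay below every NB and 3d library for both, and both were lost without 6h 3 alone (0.0700 and 0.0761). Of photoreceptor genes, Gucy2f (-1.49), Rgs9 (-1.27) and Rgs9bp (-1.42) fell, while Crym (2.13) and Gnb3 (1.32) rose (limma adjusted p = 0.0138, 0.0421, 0.0406, 0.0167 and 0.0425). Gnb3 was at 13.2 to 20.9 CPM in NB, at 74.0, 34.4 and 86.0 at 6h and at 237, 212, 101 and 104 at 1d. Each of these 5 calls was lost without 6h 3 (0.0921 to 0.195), and all but that of Crym without 6h 1 (0.0732 to 0.150). Those of Rgs9, Rgs9bp and Gnb3 were also lost without 1d 2 or 1d 4 (0.0569 to 0.109), those of Rgs9, Crym and Gnb3 without 6h 2 (0.0587 to 0.139), those of Rgs9 and Rgs9bp without 1d 3 (0.0607 and 0.0559) and that of Gnb3 without 1d 1 (0.0669).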
